A study of Mus musculus with 18 samples.

Results

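The 10 circadian clock genes *Per1*, *Per2*, *Per3*, *Cry1*, *Cry2*, *Nr1d1*, *Nr1d2*, *Dbp*, *Clock* and *Npas2* were followed in RNA-seq of mice lacking repeat B of *Xist*, the non-coding RNA that silences 1 of the X chromosomes of female cells. They were chosen by gene symbol. All 10 were listed among the 21959 genes of the MEF table and among the 51826 genes of the liver table, and all 10 passed the filter on low counts in both. The study asked how expression differs between tissues with and without the repeat. Read counts were compared between 3 RepB-/- and 3 WT libraries of primary MEFs (cultured embryonic fibroblasts, for which the labels also name tail as the tissue) and between 3 RepB-/- and 3 WT libraries of liver. RepB-/- is a homozygous germline deletion made with CRISPR/Cas9 and present in every cell, WT mice carry the intact repeat, and no further allele or agent is named for either genotype. The letters B and W in the library names were read as RepB-/- and WT. The study describes its homozygous mice as female, and the labels give no strain, age, sex, litter or time of day for any library. Nothing in the labels says that replicates came from separate animals or cultures, so p-values measure only the spread between these libraries.

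The mammalian clock is a feedback loop of transcription. CLOCK, or its relative NPAS2, pairs with BMAL1 (encoded by *Arntl*) and activates genes that carry the E-box CACGTG, among them the *Per* and *Cry* genes, whose products then repress the same pair. The nuclear receptors REV-ERBα (*Nr1d1*) and REV-ERBβ (*Nr1d2*) form a second loop by repressing *Arntl*, *Npas2*, *Clock* and *Cry1*, and DBP binds D-boxes of output genes. In liver these transcripts cycle every day with large amplitude, *Dbp* and the REV-ERB genes in the day and *Arntl*, *Npas2* and *Clock* towards the end of the night, whereas cells in culture drift out of phase with each other, so that a bulk library averages over phases. No step that sets the clock of the MEF cultures is named in the sources used here.

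Promoters in which searched elements of the clock were found are shown for 4 clock genes and 2 partners, with the matches in capitals, so that the E-boxes and D-boxes can be read in place. They are a part of the promoters with matches and were picked with earlier results of these data known. The 2 partners shown, *Ciart* and *Bhlhe41*, also fell the most among the tested partners in MEFs. They are RefSeq sequences of GRCm38.p6 from 250 bases before to 50 bases after an annotated start, written 5′ to 3′ on the strand of the gene. The searches, on both strands, were for the E-box CACGTG, the E-box-like CACGTT, the D-boxes TTATGTAA and TTACGTAA, the REV-ERB elements TAGGTCA and TGGGTCA, and the CRE TGACGTCA. CACGTG and CACGTT share all but their last base, and no matches of different elements overlapped in the promoters printed.
Per1 promoter, chr11:69098699-69098998, strand plus: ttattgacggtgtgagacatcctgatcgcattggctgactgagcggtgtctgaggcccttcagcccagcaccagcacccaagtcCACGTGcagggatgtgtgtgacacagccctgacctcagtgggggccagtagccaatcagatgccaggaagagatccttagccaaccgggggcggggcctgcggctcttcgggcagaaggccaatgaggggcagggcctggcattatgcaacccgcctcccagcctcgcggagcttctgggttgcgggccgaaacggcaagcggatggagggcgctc
Cry1 promoter, chr10:85185005-85185304, strand minus: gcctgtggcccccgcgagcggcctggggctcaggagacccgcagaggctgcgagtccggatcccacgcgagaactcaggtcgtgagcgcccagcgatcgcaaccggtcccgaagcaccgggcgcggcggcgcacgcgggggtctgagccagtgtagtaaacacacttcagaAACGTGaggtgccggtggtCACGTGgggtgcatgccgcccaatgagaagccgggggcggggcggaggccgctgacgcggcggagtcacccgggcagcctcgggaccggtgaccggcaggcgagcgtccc
Per3 promoter, chr4:151044616-151044915, strand minus: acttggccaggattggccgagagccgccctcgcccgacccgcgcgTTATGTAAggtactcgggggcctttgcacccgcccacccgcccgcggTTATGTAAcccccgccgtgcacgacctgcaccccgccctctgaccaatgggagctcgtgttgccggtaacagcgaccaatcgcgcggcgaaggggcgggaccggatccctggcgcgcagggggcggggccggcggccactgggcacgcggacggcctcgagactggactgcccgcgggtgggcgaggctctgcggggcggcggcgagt
Nr1d1 promoter, chr11:98775328-98775627, strand minus: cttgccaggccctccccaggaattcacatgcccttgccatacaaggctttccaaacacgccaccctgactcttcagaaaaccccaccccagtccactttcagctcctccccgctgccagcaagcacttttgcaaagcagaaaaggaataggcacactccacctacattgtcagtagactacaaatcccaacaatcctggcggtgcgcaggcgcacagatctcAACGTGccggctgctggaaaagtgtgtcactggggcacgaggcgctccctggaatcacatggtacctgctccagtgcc
Ciart promoter, chr3:95882179-95882478, strand minus: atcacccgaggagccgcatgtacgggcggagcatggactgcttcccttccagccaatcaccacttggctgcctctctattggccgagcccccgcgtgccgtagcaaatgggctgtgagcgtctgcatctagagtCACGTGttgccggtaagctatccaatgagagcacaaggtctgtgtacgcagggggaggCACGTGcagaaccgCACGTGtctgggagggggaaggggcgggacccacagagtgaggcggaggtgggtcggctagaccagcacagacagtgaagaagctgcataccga
Bhlhe41 promoter, chr6:145865371-145865670, strand minus: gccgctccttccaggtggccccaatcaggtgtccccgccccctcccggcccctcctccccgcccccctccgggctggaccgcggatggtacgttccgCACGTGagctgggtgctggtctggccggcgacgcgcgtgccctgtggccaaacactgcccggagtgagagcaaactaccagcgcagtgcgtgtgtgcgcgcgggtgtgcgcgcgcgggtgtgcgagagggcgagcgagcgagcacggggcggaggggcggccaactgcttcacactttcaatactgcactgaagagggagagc
The E-box CACGTG lay at position -166 of *Per1*, counted from the start, and at -60 of *Cry1*, which also held the E-box-like AACGTG at -79. *Per3* held the D-box TTATGTAA at -205 and at -158. *Nr1d1* held AACGTG at -28, and *Cry2*, not shown, held it at -166. Among partners of the loop, *Ciart* held CACGTG at -116, -58 and -44 and *Bhlhe41* at -153, and *Tef* held it in both of its annotated promoters, at -127 and -138. The REV-ERB element lay at position 31 of *Arntl*, in 1 of its promoters, and, on the opposite strand, at -12 of *Nfil3*, and the CRE at -9 of *Hlf*. None of the searched letters were found in these windows of *Nr1d2*, *Dbp*, *Clock* or *Npas2*, nor in the other annotated *Per1* promoter. Of 32544 promoters of this length, 7.17% held CACGTG, 4.71% CACGTT, 0.931% TTATGTAA, 0.12% TTACGTAA, 2.61% TAGGTCA, 4.0% TGGGTCA and 1.8% TGACGTCA.

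Some libraries stand apart, and this touches the results that follow. Depth was 20005541 to 20587556 counts per RepB-/- MEF library and 11540344 to 16347806 per WT MEF library, with WT replicate 1 the shallowest. Depth thus went with genotype in MEFs, and its part in the MEF results was not tested. The liver libraries held 37682201 to 51542709 counts. The MEF libraries expressed all 6 fibroblast markers, with a summed level of 13573 to 16632 CPM (counts scaled to library size, with TMM normalisation) in RepB-/- and 9213 to 12148 in WT. The 3 endothelial markers summed to 10.7 to 12.3 CPM in RepB-/- and 23.2 to 28.0 in WT. The 3 skeletal muscle markers summed to 39.6 to 49.8 CPM in RepB-/- and 107 to 174 in WT. The 5 epithelial markers summed to 33.0 to 39.2 CPM in RepB-/- and 39.6 to 50.8 in WT. Macrophage marker sums overlapped between genotypes, and hepatocyte markers summed to at most 0.642 CPM. In liver the hepatocyte markers summed to 107510 to 187573 CPM. Replicate 1 of both liver genotypes was rich in fetal liver transcripts (*Afp*, *H19*, *Igf2*, *Dlk1* and *Gpc3*), which summed to 5970 CPM in RepB-/- and 4753 in WT against 4.50 to 20.2 in the other 4 livers. The library labelled RepB-/- liver replicate 2 held 86.2 CPM of 4 Y-linked genes and 4 counts of *Xist*, where the other 5 livers held at most 0.0292 CPM and 14494 to 26345 counts. By these genes this library reads as male, whereas the study describes its homozygous mice as female. A count per gene does not show whether repeat B is missing. Liver effects of the clock genes are therefore given with and without these libraries.

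By median level, the order of the clock genes differed between MEFs and liver. Levels between genes were compared per length of transcript. In MEFs the FPKM median over 6 libraries was 18.9 for *Nr1d1*, 10.02 for *Per1*, 6.10 for *Nr1d2*, 5.33 for *Cry1*, 4.66 for *Clock*, 3.77 for *Cry2*, 2.53 for *Dbp*, 1.31 for *Per3*, 1.06 for *Per2* and 0.932 for *Npas2*. The ranges of neighbours in this order overlapped from *Nr1d2* through *Cry1* to *Clock*, and from *Per3* through *Per2* to *Npas2*, and were apart elsewhere. In liver the TPM median was highest for *Cry2* (14.0) and *Cry1* (12.6), between 7.78 and 3.30 for *Nr1d2*, *Nr1d1*, *Clock*, *Per2*, *Dbp*, *Per1* and *Npas2* in that order, and lowest for *Per3* (1.15). All neighbours in the liver order overlapped in range, so that order rests on medians of livers that differ widely. The tables of the 2 tissues, FPKM in MEFs and TPM in liver, were normalised separately.

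In MEFs, *Cry1*, *Per2* and *Per1*, which encode repressors of the loop, were lower in RepB-/- cells, and *Clock*, which encodes an activator, was higher. These 4 of the 10 genes passed an adjusted p of 0.05 (edgeR quasi-likelihood test with Benjamini-Hochberg adjustment), 1 upward and 3 downward. This share is close to that of all genes, since 39.1% of 13306 tested genes passed, 19.4% upward and 19.7% downward, so the number of clock genes called does not set them apart. The median log2 fold change was -0.03 over the 10 genes and 0.00030 over all genes tested. Direction did not follow the role of the gene throughout. *Cry2*, also a repressor gene, was higher without passing, and *Per3* and the activator gene *Npas2* showed no detectable difference. *Arntl*, the gene of the partner of CLOCK, fell. The calls of *Per1* and *Per2* were lost without some single libraries.

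**Figure D1:**
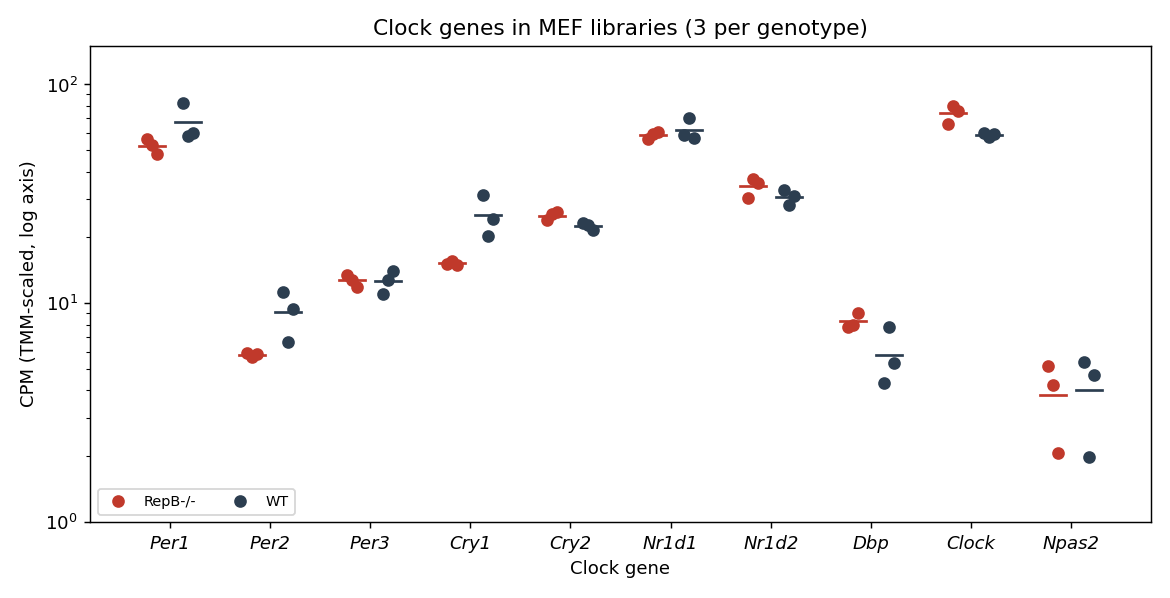
Level of each clock gene in the 6 MEF libraries, in TMM-scaled CPM on a log axis, with a point per library and a bar at the mean of each genotype. *Cry1* sits at 15.0 to 15.6 CPM in RepB-/- and at 20.4 to 31.2 in WT, and *Clock* at 66.1 to 79.5 against 57.4 to 59.8.

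*Cry1* encodes a cryptochrome, the partner of the PER proteins in repression. It was counted at 15.1, 15.6 and 15.0 CPM in RepB-/- replicates 1 to 3 and at 31.2, 20.4 and 24.2 CPM in WT replicates 1 to 3. Every WT library was above every RepB-/- library, with WT replicate 1 the highest. The log2 fold change was -0.73 ± 0.14 (SE, n = 3 per genotype, edgeR adjusted p = 0.00102). *Cry2*, its paralogue, was at 24.1, 25.5 and 26.0 CPM in RepB-/- and 23.3, 22.9 and 21.7 CPM in WT. The genotypes did not overlap here either, in the direction opposite to *Cry1*, but the log2 fold change of 0.16 ± 0.09 did not pass (edgeR adjusted p = 0.198).

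*Per2*, a core period gene, was at 5.91, 5.68 and 5.88 CPM in RepB-/- and at 11.3, 6.68 and 9.44 CPM in WT. The RepB-/- libraries lay within a narrow band below all WT libraries, and its log2 fold change was -0.64 ± 0.19 (edgeR adjusted p = 0.0162). *Per1*, the period gene that also responds quickly to outside signals, was at 56.4, 53.0 and 48.1 CPM in RepB-/- and at 82.5, 58.4 and 60.2 CPM in WT, a log2 fold change of -0.35 ± 0.12 (edgeR adjusted p = 0.0307). For *Per1*, WT replicates 2 and 3 were just above the highest RepB-/- library, and WT replicate 1 stood well above the other 5 libraries. Without WT replicate 1 both calls were lost, with log2 fold changes of -0.17 for *Per1* (edgeR adjusted p = 0.0916) and -0.47 for *Per2* (0.0542). Both values are on the same side as with all libraries. *Per2* also missed the threshold without RepB-/- replicate 2 (edgeR adjusted p = 0.0564) or WT replicate 3 (0.0519), and *Per1* without RepB-/- replicate 2 (0.0821) or 3 (0.1205). *Per3*, the period gene with the weakest part in the loop, was at 13.5, 12.8 and 11.9 CPM in RepB-/- and 11.1, 12.7 and 14.1 CPM in WT, with fully overlapping genotypes (edgeR adjusted p = 0.978).

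*Clock* was at 66.1, 79.5 and 76.0 CPM in RepB-/- and at 59.8, 57.4 and 59.7 CPM in WT. The WT libraries were nearly level and all RepB-/- libraries were above them, with a log2 fold change of 0.32 ± 0.08 (edgeR adjusted p = 0.00696). *Npas2*, which can take the place of *Clock*, was at 5.15, 4.24 and 2.08 CPM in RepB-/- and 5.37, 1.98 and 4.69 CPM in WT, resting on 32 to 101 counts per library. Each genotype had 1 low library, and no difference was detectable (log2 fold change -0.06 ± 0.36, edgeR adjusted p = 0.914). *Cry1* and *Clock* passed with each library left out in turn.

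*Dbp*, the D-box activator and a direct output of the E-box, was at 7.80, 7.96 and 9.07 CPM in RepB-/- and at 4.33, 7.79 and 5.35 CPM in WT. WT replicate 2 came just below the lowest RepB-/- library, and the other WT libraries were clearly lower. The log2 fold change was 0.49 ± 0.20 and missed the threshold (edgeR adjusted p = 0.0650), and without WT replicate 2 it was 0.76 (edgeR adjusted p = 0.00837). *Nr1d1* was at 56.2, 59.5 and 60.4 CPM in RepB-/- and 59.0, 70.2 and 56.9 CPM in WT (edgeR adjusted p = 0.495). *Nr1d2* was at 30.3, 37.1 and 35.6 CPM in RepB-/- and 32.8, 28.2 and 30.9 CPM in WT (edgeR adjusted p = 0.204). Both REV-ERB genes overlapped between genotypes. Over all 10 genes, 6 did not overlap, 3 higher and 3 lower in RepB-/-, beside 52.2% of all tested genes, 26.4% higher and 25.8% lower.

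Of 11 log2 ratios of CPM between clock genes within a MEF library, 4 separated the genotypes and 7 overlapped. These ratios share genes, and the share of other gene pairs that separate was not computed. Of single tested genes, 52.2% did not overlap, so the count of 4 does not set the ratios apart. The log2 ratio of *Dbp* to *Arntl*, which peak at opposite times of day in tissue, was -2.107, -1.995 and -2.090 in RepB-/- and -3.83, -2.56 and -3.08 in WT. The 3 RepB-/- libraries lay close together and above all WT libraries, and WT replicate 1 was the lowest. The log2 ratio of *Nr1d1* to *Cry1* was likewise 1.90, 1.94 and 2.01 in RepB-/- and 0.92, 1.78 and 1.23 in WT. That of *Dbp* to *Npas2*, at 0.60, 0.91 and 2.13 in RepB-/- and -0.31, 1.98 and 0.19 in WT, overlapped.

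Partners of the loop were read from a list of 11 genes. Of the 9 tested in MEFs 1 rose and 3 fell, a share near the 39.1% of all genes, and *Hlf* was among those too low to test. *Bhlhe41*, which encodes the E-box repressor DEC2, was at 2.60, 1.65 and 1.52 CPM in RepB-/- and at 8.42, 5.50 and 4.99 CPM in WT, the widest difference of the list (log2 fold change -1.69 ± 0.28, edgeR adjusted p = 3.99e-04). *Ciart*, the repressor CHRONO, was at 2.80, 2.17 and 2.28 CPM in RepB-/- and at 7.14, 3.83 and 4.69 CPM in WT (log2 fold change -1.09 ± 0.26, edgeR adjusted p = 0.00518). Both promoters shown above hold CACGTG, as do those of *Per1* and *Cry1*, which fell, and of *Tef*, whose log2 fold change of 0.04 did not pass (edgeR adjusted p = 0.726). Among all tested MEF genes, however, 20.2% of the 1206 with CACGTG in the promoter fell and 17.9% rose, beside 18.98% and 19.49% of the 9282 without it.

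*Arntl*, the BMAL1 gene itself, was at 33.6, 31.7 and 38.6 CPM in RepB-/- and at 61.5, 45.9 and 45.3 CPM in WT, again without overlap (log2 fold change -0.55 ± 0.12, edgeR adjusted p = 0.00253). Its fall and the rise of *Clock*, the gene of its binding partner, were thus in opposite directions. *Rora*, which encodes an activator of *Arntl*, was at 36.8, 38.9 and 40.3 CPM in RepB-/- and 34.6, 33.6 and 29.9 CPM in WT (log2 fold change 0.25 ± 0.09, edgeR adjusted p = 0.0401), a call that was lost without any of 5 of the 6 libraries, WT replicate 1 being the exception (highest edgeR adjusted p = 0.156). *Nfil3*, *Tef* and *Bhlhe40* had log2 fold changes of -0.01, 0.04 and 0.08 and did not pass.

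Genes around the clock were read from further lists. Of 13 modifiers of clock proteins 2 rose and 2 fell, where 19.4% of all tested genes rose and 19.7% fell. *Timeless* (0.67) and *Nono* (0.39, a PER-associated RNA-binding protein) rose and *Csnk1e* (-0.57, a kinase that marks PER proteins for degradation) and *Sirt1* (-0.65, a deacetylase) fell, in log2 fold change. Of 6 tested outputs 3 rose and 2 fell, with *Wee1* (0.67, a brake on mitosis), *Nampt* (0.33, NAD synthesis) and *Alas1* (0.23, haem synthesis) upward and *Noct* (-0.50, the nocturnin phosphatase) and *Por* (-0.31, cytochrome P450 oxidoreductase) downward. *Alas1* missed the threshold without RepB-/- replicate 1 or 2 or WT replicate 3, with an edgeR adjusted p of up to 0.0633.

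Heat, cold and glucocorticoids can set the clock of cultured cells. Transcripts that respond to them were read from 3 short lists, which were not tested as lists. The heat shock and cold-inducible genes moved in mixed directions. All 5 glucocorticoid-responsive genes were higher in RepB-/- without overlap, beside 26.4% of all tested genes. Among 5 heat shock genes 4 fell and 1 rose, and *Hspa1b* was at 18.6, 18.6 and 23.9 CPM in RepB-/- and at 1001, 383 and 499 CPM in WT (log2 fold change -4.94 ± 0.30, edgeR adjusted p = 1.19e-07). WT replicate 1, which had the most *Cry1*, *Per1* and *Per2* and the least *Dbp*, also had the most *Hspa1b*. *Hspa1a*, a near-identical copy whose reads could be shared with *Hspa1b*, *Hsph1* and *Hspa8* had log2 fold changes of -3.59, -0.38 and -0.25, the last of which missed the threshold without any of 5 libraries, WT replicate 2 being the exception (edgeR adjusted p up to 0.172), and *Hsp90aa1* rose by 0.60. Of 5 glucocorticoid-responsive genes 4 rose, *Zbtb16* by 1.72, *Tsc22d3* by 0.71, *Klf9* by 0.59 and *Sgk1* by 0.35, while *Fkbp5* at 0.21 did not pass (edgeR adjusted p = 0.0743). The cold-inducible *Cirbp* fell (-0.92) and *Rbm3* rose (0.39). Beside the counts of these lists, 19.4% of all tested genes rose and 19.7% fell. Median log2 fold changes were -0.0051 over the tested loop partners, 0.10 over the modifiers, 0.17 over the outputs, -0.38 over the heat shock, 0.59 over the glucocorticoid-responsive and -0.26 over the cold-inducible genes, beside 0.00030 over all genes tested. The part of heat shock, of hormone signals and of the different fibroblast, endothelial, skeletal muscle and epithelial marker levels in the clock gene differences was not tested.

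**Figure D2:**
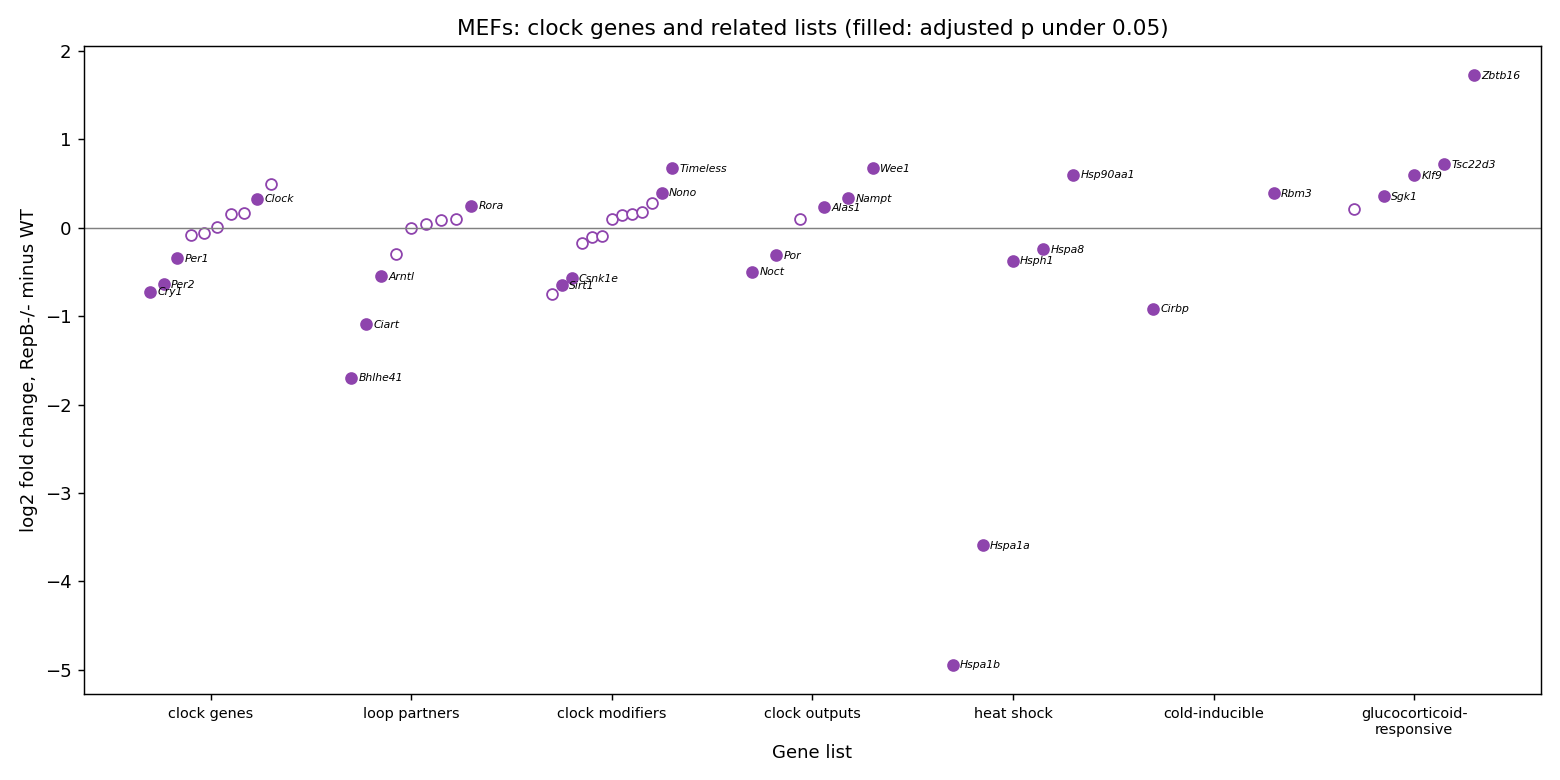
Log2 fold change of RepB-/- against WT MEFs (vertical axis) for the clock genes and 6 related lists (horizontal axis), with a point per tested gene, filled and named where the edgeR adjusted p was under 0.05. Of the named clock genes and loop partners, *Cry1*, *Per2*, *Per1*, *Ciart*, *Bhlhe41* and the activator gene *Arntl* lie below 0. *Clock* and *Rora* lie above it. The heat shock gene *Hspa1b* is lowest at -4.94.

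In liver, no clock gene passed the test between genotypes, but these genes varied widely from liver to liver. *Dbp*, *Nr1d1* and *Per1* spanned 20.2-fold, 17.8-fold and 12.8-fold between the lowest and highest of the 6 libraries. The median SD of log2 CPM over the 6 livers was 0.99 for the 10 clock genes and 0.45 for all genes tested, where in MEFs the same medians were 0.23 and 0.21. Of all tested liver genes, 4.55% varied at least as much as *Dbp*, 6.97% as much as *Nr1d1* and 7.81% as much as *Per1*. *Cry2* (1.60-fold) and *Per2* (2.17-fold) had the narrowest ranges of the 10 genes.

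**Figure D3:**
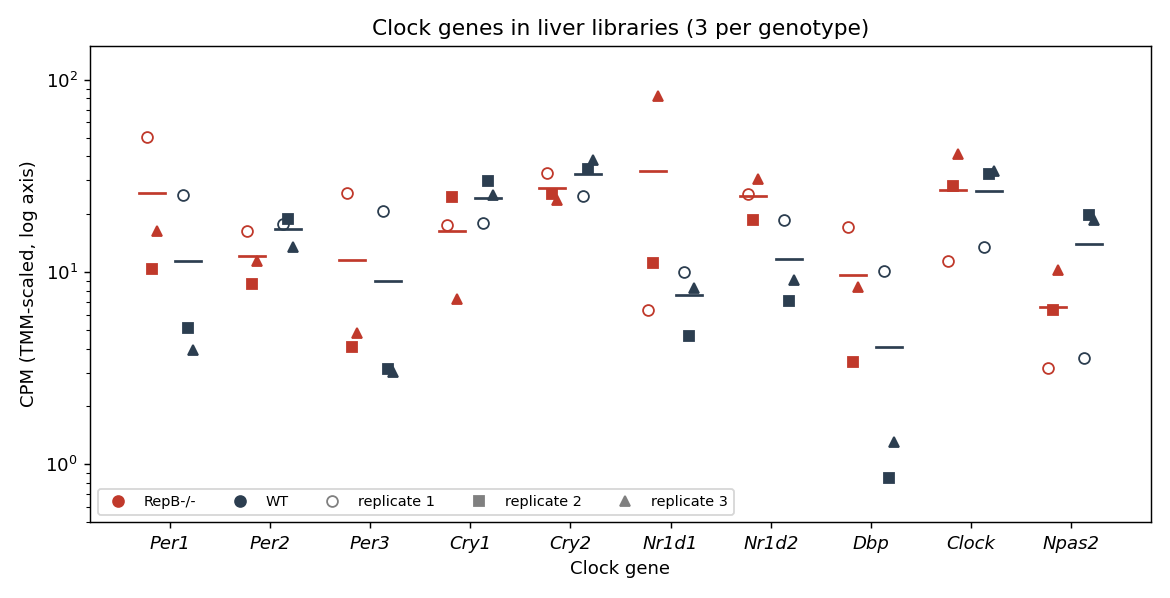
Level of each clock gene in the 6 liver libraries, in TMM-scaled CPM on a log axis, with the shape of a point giving the replicate number and a bar at the mean of each genotype. Open circles, replicate 1 of both genotypes, lie high for *Per1*, *Per3* and *Dbp* and low for *Clock* and *Npas2*.

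By the same test, 0 of 10 clock genes passed an adjusted p of 0.05 in liver, where 0.0373% of 16080 tested genes did. At an unadjusted p under 0.05, 1 of the 10 passed (*Nr1d2*), beside 3.12% of all genes, and DESeq2 also called 0 after adjustment and 2 before it. Before adjustment, edgeR called 4 with the replicate number as a block and 5 with a term for replicate 1. It called 6 with both replicate 1 libraries left out. All 3 of these fits called 0 after adjustment, and the unadjusted share of all genes was not computed for them. None of the 10 separated the genotypes without overlap, beside 8.05% of all tested genes. The biological coefficient of variation was 51.2% in liver and 9.06% in MEFs, so smaller differences were not detectable in liver.

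*Dbp* was at 17.2, 3.42 and 8.37 CPM in RepB-/- and at 10.1, 0.852 and 1.31 CPM in WT livers 1 to 3, the last 2 resting on 33 and 62 counts. Replicate 1 was the highest in each genotype, and WT replicates 2 and 3 were the lowest of all. Between livers of the same number RepB-/- was 1.71-fold, 4.01-fold and 6.39-fold above WT. The log2 fold change was 1.24 ± 1.03 (edgeR adjusted p = 1.00), 0.53 without RepB-/- replicate 1 and 3.16 without WT replicate 1. With both replicate 1 libraries left out, and RepB-/- replicate 2 kept, it was 2.44 ± 0.55 (edgeR adjusted p = 0.302).

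*Per1* was at 50.4, 10.3 and 16.4 CPM in RepB-/- and at 25.3, 5.09 and 3.93 CPM in WT livers, the same order of libraries as for *Dbp* but for WT replicates 2 and 3. Livers of the same number differed by 1.99-fold, 2.03-fold and 4.17-fold. *Per3* was at 25.7, 4.09 and 4.84 CPM in RepB-/- and 20.7, 3.13 and 3.02 CPM in WT, so that both replicate 1 livers stood far above the other 4 whatever the genotype. *Per2* did not follow them, at 16.4, 8.72 and 11.5 CPM in RepB-/- and 17.8, 18.9 and 13.6 CPM in WT. The log2 fold changes were 1.17 ± 0.88 for *Per1*, 0.37 ± 1.02 for *Per3* and -0.46 ± 0.29 for *Per2*, none of which passed. That of *Per1* was 0.23 without RepB-/- replicate 1 and 2.51 without WT replicate 1.

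*Nr1d1* was at 6.36, 11.2 and 82.7 CPM in RepB-/- and at 10.1, 4.65 and 8.22 CPM in WT livers. The value of 82.7 CPM, from 2835 counts, stood alone in RepB-/- replicate 3. The log2 fold change was 2.13 ± 0.96 with this library and 0.20 ± 0.44 without it. *Nr1d2* was at 25.5, 18.6 and 30.5 CPM in RepB-/- and 18.8, 7.10 and 9.10 CPM in WT, with WT replicate 1 just above the lowest RepB-/- library, and a log2 fold change of 1.09 ± 0.40 that ranged over 0.84 to 1.62 on leaving out single libraries. In the annotation of GRCm38, 263 of the 3077 exonic bases of *Nr1d1* overlap the opposite gene *Thra*, and 539 of the 2993 of *Dbp* overlap the opposite gene *Sphk2*, and the use of strand in counting is not stated. In livers 1 to 3, *Thra* had 1487, 1094 and 548 counts in RepB-/- and 1027, 680 and 733 in WT. *Sphk2* had 1805, 2991 and 2528 counts in RepB-/- and 1297, 1744 and 2647 in WT. The part of these overlaps in the counts of *Nr1d1* and *Dbp* was not tested.

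*Cry1* was at 17.6, 24.4 and 7.26 CPM in RepB-/- and at 18.0, 29.9 and 25.1 CPM in WT, lowest in RepB-/- replicate 3, the liver with the most *Nr1d1*. Its log2 fold change was -0.57 ± 0.44 and did not pass. *Nfil3*, which encodes the D-box repressor E4BP4, was at 33.9, 52.0 and 22.0 CPM in RepB-/- and 25.3, 54.3 and 48.0 CPM in WT, again lowest in that library. *Bhlhe40* and *Tef* were lowest there too, *Clock* was highest, and *Npas2* and *Arntl* were in the middle of their ranges.

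*Clock* was at 11.4, 28.0 and 41.1 CPM in RepB-/- and at 13.5, 32.2 and 33.5 CPM in WT, low in both replicate 1 livers. *Npas2* was at 3.16, 6.32 and 10.3 CPM in RepB-/- and at 3.57, 19.9 and 18.6 CPM in WT, with the same low pair and with WT replicates 2 and 3 above all others. *Arntl* was at 14.8, 28.7 and 25.0 CPM in RepB-/- and at 22.4, 40.9 and 39.6 CPM in WT. All 3 activator genes were lowest in RepB-/- replicate 1. The log2 fold changes were 0.02 ± 0.53 for *Clock*, -1.09 ± 0.70 for *Npas2* and -0.59 ± 0.34 for *Arntl*, none of which passed. *Cry2* was at 32.8, 25.4 and 23.8 CPM in RepB-/- and 24.8, 34.5 and 38.1 CPM in WT, with a log2 fold change of -0.25 ± 0.23 that ranged over -0.41 to -0.12 on leaving out single libraries.

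**Figure D4:**
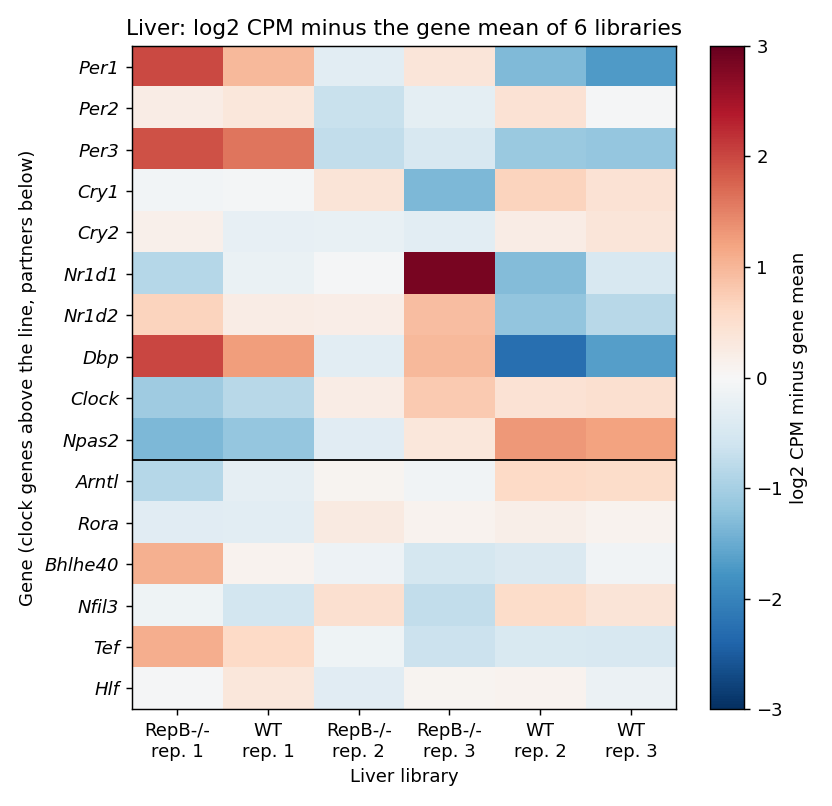
Log2 CPM minus the mean of the 6 liver libraries, as colour, for the clock genes (above the line) and 6 partners (below it), with a column per library. *Dbp*, *Per1* and *Nr1d2* are red and *Npas2* and *Arntl* blue in replicate 1 of both genotypes, with the reverse in WT replicates 2 and 3, while in RepB-/- replicate 2 *Dbp* and *Npas2* are both pale blue and in replicate 3 both red.

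Read library by library, genes that peak at opposite times of day stood in different balance in the 6 livers. The log2 ratio of *Dbp* to *Arntl* was 0.22, -3.07 and -1.58 in RepB-/- and -1.15, -5.58 and -4.92 in WT. It was highest in RepB-/- replicate 1 and lowest in WT replicates 2 and 3, and in each pair of the same number it was higher in RepB-/-. The log2 ratio of *Dbp* to *Npas2* was 2.45, -0.89 and -0.29 in RepB-/- and 1.501, -4.54 and -3.83 in WT. Of 11 such ratios in liver, 1 separated the genotypes, that of *Dbp* to *Per3*, at -0.58, -0.26 and 0.79 in RepB-/- and -1.03, -1.87 and -1.21 in WT. The share of other gene pairs was not computed in liver either, and 8.05% of single tested genes did not overlap. Across the 6 livers, which share fetal transcripts in replicate 1, log2 CPM of *Dbp* had a Pearson r of 0.96 with *Per1*, 0.91 with *Nr1d2* and 0.85 with *Per3*, of -0.96 with *Arntl* and -0.89 with *Npas2*, and of 0.37 with *Nr1d1*.

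Between livers of the same number, *Per1*, *Per3*, *Nr1d2* and *Dbp* were higher in RepB-/- in all 3 pairs and *Per2*, *Cry1* and *Npas2* were lower in all 3. Of all tested genes 15.4% were higher and 14.4% were lower in all 3 pairs. The RepB-/- liver of number 2 is the library with Y-linked counts. The 4 higher genes were also higher in WT replicate 1 than in WT replicates 2 and 3. The fetal transcripts of replicate 1 move with *Per1*, *Per3* and *Dbp* upward and with *Clock* and *Npas2* downward, and erythroid markers summed to 3570, 1814 and 1086 CPM in RepB-/- and to 1304, 251 and 211 CPM in WT. Their part in these values was not tested. The labels give no time of collection, which cannot be told apart from genotype and replicate number in these livers. With a term for replicate 1, and RepB-/- replicate 2 with its Y-linked counts removed, the log2 fold changes were 1.49 ± 0.26 for *Per1*, 2.03 ± 0.54 for *Dbp*, 1.31 ± 0.36 for *Nr1d2*, -0.60 ± 0.25 for *Npas2*, -1.06 ± 0.49 for *Cry1*, -0.33 ± 0.23 for *Per2*, 0.50 ± 0.19 for *Per3*, 2.18 ± 1.07 for *Nr1d1*, -0.16 ± 0.28 for *Cry2* and 0.09 ± 0.19 for *Clock*, none of which passed (lowest edgeR adjusted p = 0.394). With both replicate 1 libraries left out they were 1.57 for *Per1*, 1.60 for *Nr1d2*, 2.86 for *Nr1d1*, -1.22 for *Npas2*, -0.79 for *Cry1*, -0.69 for *Per2*, -0.56 for *Cry2*, 0.54 for *Per3* and 0.07 for *Clock*, and again none passed (lowest edgeR adjusted p = 0.222). This last fit kept RepB-/- replicate 2 with its Y-linked counts. In the fit before it, replicate 3 was the only RepB-/- liver low in fetal transcripts.

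The remaining partners and lists gave no calls in liver either. Of 9 tested partners 0 passed. *Tef*, a D-box activator related to DBP, was at 73.8, 31.6 and 22.1 CPM in RepB-/- and 51.9, 25.1 and 24.6 CPM in WT, high in both replicate 1 livers like *Dbp*. *Hlf*, the other relative, stayed between 21.4 and 34.5 CPM and *Rora* between 33.8 and 52.1 CPM. *Bhlhe40* ranged from 53.3 to 161 CPM, highest in RepB-/- replicate 1, *Ciart* did not exceed 0.852 CPM and *Bhlhe41* was too low to test.

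The genotype effect was then compared between MEFs and liver in a fit of all 12 libraries, with the effect in MEFs minus that in liver as the contrast. By edgeR, 0 of 10 clock genes passed, beside 0.388% of 15208 genes, and 0 had an unadjusted p under 0.05, while limma-voom with weights by tissue, which called 0.256% of all genes, called 0 after adjustment and 2 before it (*Per1* and *Nr1d2*). The lowest adjusted p values were those of *Nr1d2* (difference -0.94 ± 0.44, edgeR adjusted p = 0.366) and *Nr1d1* (-2.23 ± 1.05, edgeR adjusted p = 0.372), and the latter difference was -0.28 without RepB-/- liver replicate 3. For *Per1*, which fell in MEFs and was higher in RepB-/- in every liver pair, the difference was -1.51 ± 0.96 (edgeR adjusted p = 0.524). With the replicate number as a block the *Per1* difference was -1.69 ± 0.30 and passed (edgeR adjusted p = 0.0488). Without the block it was -0.53 when RepB-/- liver replicate 1 was left out and -2.86 when WT liver replicate 1 was left out.

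**Figure D5:**
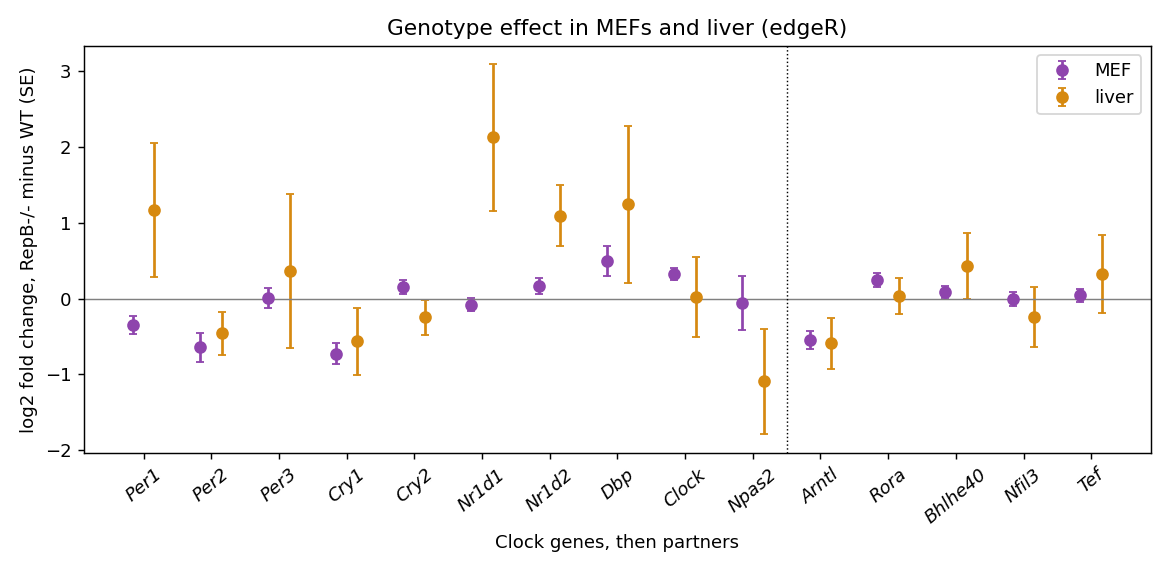
Log2 fold change of RepB-/- against WT with its standard error (vertical axis) in MEFs and in liver for the clock genes and, right of the dotted line, 5 partners. Liver errors are wide, as for *Nr1d1* at 2.13 ± 0.96, and *Cry1* and *Arntl* have values below 0 in both.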

How the data were processed

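RNA-seq of 6 MEF and 6 liver libraries was used, and the 6 brain samples were not analysed here. The authors deposited whole-number read counts per gene for both tissues, FPKM for both and TPM for liver. Per the labels, poly(A) RNA libraries were made after QIAzol extraction. The methods name Cutadapt and Hisat2 for MEFs, and the submitters' processing notes list Trim Galore 0.4.1, STAR 2.7.0, HTSeq 0.12.4, DESeq2 and deepTools 3.5.0. The methods also describe the mRNA libraries as stranded and made by Genewiz and Novogene, without saying which company made which. Which tool counted reads, and whether by strand, is not given in the sources used here. Gene coordinates are GRCm39 in the MEF table and GRCm38 in the liver table. Columns of the authors' own comparisons (fold changes and p-values) were not used, and of the deposited FPKM only those of MEFs are printed.

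Counts were scaled by TMM and tested per tissue with edgeR 4.0.16 in R 4.3.3 (filterByExpr, quasi-likelihood, Benjamini-Hochberg over all genes tested, two-sided, adjusted p 0.05). CPM printed are TMM-scaled, and log2 CPM has a prior count of 2. A fit of 12 libraries with an interaction term compared tissues. Alternatives were DESeq2 1.42.0, its size factors in edgeR, no filter beyond a count, limma 3.58.1, the replicate number as a block, a term for replicate 1 of liver, and leaving out each library. Libraries of the same number deviated together in liver (correlations 0.71, 0.36 and 0.37 for numbers 1 to 3), so their numbers were taken to pair them, although the highest correlation between different numbers was 0.41 for number 2 and 0.40 for number 3. Values were centred within each genotype, so a shift of replicate 1 alone can give such correlations. They do not show that livers 2 and 3 are pairs. Replicate libraries differed beyond counting noise. The fits were tested on simulated data. Named are the 10 clock genes, members of 6 related lists that passed the test, and 8 loop partners, with *Fkbp5*, *Noct* in liver and *Elovl3* added after their values were seen. A listed gene is not reported here. RefSeq promoters (GRCm38.p6) were found for 9 of the 10 clock genes. The genes and lists were chosen with earlier results of these data known.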

Additional observations from a re-analysis of the deposited data

Results flagged for a closer look

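The genotype effect on *Per1* differed between MEFs and liver in the fit with the replicate number as a block. The difference of log2 fold changes, MEFs minus liver, was -1.69 ± 0.30 (edgeR adjusted p = 0.0488), with *Per1* lower in all 3 RepB-/- MEF libraries than in any WT library and higher in RepB-/- in all 3 liver pairs of the same number. Without the block it was -1.51 ± 0.96 and did not pass (edgeR adjusted p = 0.524), and over the other alternatives that keep all libraries the adjusted p was between 0.0101 and 0.597. Without the block and with each library left out it ranged from -2.86 (without liver WT replicate 1) to -0.53 (without liver RepB-/- replicate 1), and none of these passed. Livers 2 and 3 did not correlate best with the liver of their own number, on which the block rests. No explanation was tested.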

How the results depend on the processing

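In MEFs the count of clock genes called was 4, 5 with the replicate block and 2 to 5 with each library left out, being 2 without RepB-/- replicate 2 or WT replicate 1. The block added *Dbp* (0.52, edgeR adjusted p = 0.0481), although MEF libraries of the same number did not deviate together (correlations -0.01, -0.04 and -0.0035), and so did testing every gene with a count (0.53, adjusted p = 0.0133). *Rora* and *Hspa8* missed the threshold with the block, *Rora* also with DESeq2 and *Hspa8* when every gene with a count was tested. In liver the count was 0 under every alternative run, while calls over all genes moved from 6 to 80 with DESeq2 and to 8 with the block, which changed no call of a clock gene. The count of clock genes whose effect differed between tissues was 0, and it was 1 with a term for replicate 1 of liver, 1 with the replicate block, 1 with limma-voom and the block (chosen after seeing the data), in each case *Per1*, and 0 to 1 with each library left out, where *Nr1d2* passed without liver WT replicate 1 (-1.43, edgeR adjusted p = 0.0291).

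Signs turned only for values near 0 or wide errors. *Per3* in MEFs became -0.0024 with DESeq2's size factors in edgeR, and *Clock* in liver -0.049 with the block and -0.032 with the term for replicate 1. With each library left out, values in MEFs ranged from -0.075 to 0.097 for *Per3*, -0.14 to 0.019 for *Nr1d1* and -0.39 to 0.25 for *Npas2*, values in liver from -0.999 to 1.91 for *Per3* and -0.41 to 0.39 for *Clock*, and differences between tissues from -0.35 to 0.11 for *Per2*, -1.90 to 1.05 for *Per3*, -0.53 to 0.26 for *Cry1*, -2.64 to 0.032 for *Dbp* and -0.035 to 0.73 for *Clock*. The cause was not tested. With 3 libraries per genotype and a spread of 51.2% in liver, only large differences could pass there.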

Other observations

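Among 13279 liver genes of at least 1 CPM on average, the log2 CPM most like that of *Dbp* over the 6 libraries were those of *Pld4* (Pearson r = 0.998), *Gltp*, *Capsl*, *Mfap4* and *Sema3f*, and the most opposed were *Gm28035* (-0.996), *Eif3j2*, *Ttc37*, *Uvssa* and *Rab11fip4*. Those most like *Npas2* were *Zfp397* (0.997), *AC153899.1*, *Myh7b*, *Mrpl13* and *Smim14*, and the most opposed were *Lgi2* (-0.999), *Wnk4*, *Sparc*, *Nid2* and *Cyb561a3*. *Mfap4*, an extracellular matrix gene, was at 22.1, 5.14 and 8.90 CPM in RepB-/- and 14.8, 1.47 and 1.67 CPM in WT, and *Sparc*, another matrix gene, at 530, 276 and 209 CPM and 448, 123 and 136 CPM. With 6 libraries and this many genes, values of r near 1 arise for many genes, and replicate 1 of both genotypes is at an end of each.

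*Elovl3*, a fatty acid elongase listed among the outputs, was at 172 CPM in the liver library with Y-linked counts and at no more than 2.09 CPM in the other 5. *Noct* was at 52.4, 5.68 and 21.1 CPM in RepB-/- livers and 10.2, 8.55 and 3.80 CPM in WT, and *Fkbp5* at 75.3, 20.7 and 29.9 CPM and 76.5, 72.5 and 99.4 CPM. Neither passed the test.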
